A study of Mus musculus with 15 samples.

Results

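Skin of allogeneic mice treated with Wnt-C59 and belumosudil together (called the combination here) was compared with skin of allogeneic mice given vehicle alone, across all genes. The comparison rests on 7 of the 15 libraries of the study, 4 of the combination and 3 of the vehicle, and 18651 of the 56059 genes in the table had enough counts to be tested. All 7 came from recipients of an allogeneic bone marrow transplant, which models chronic graft-versus-host disease, an attack of the donor's immune cells on the host's tissues. Combination mice received Wnt-C59 at 5 mg/kg and belumosudil at 150 mg/kg by mouth every day, and vehicle mice received 0.4% methylcellulose, in both cases between day 21 and day 49 after the transplant. The study also holds 4 syngeneic vehicle libraries and 4 libraries of allogeneic mice given Wnt-C59 alone at 5 mg/kg, which entered the fit and 2 shorter comparisons. Strain, sex and age of the mice are not given in the sources used here.

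The combination libraries are known by column numbers, 2, 3, 4 and 5, behind a code that no label spells out. They were assigned by elimination, the names of the remaining columns having matched the remaining groups, and the numbers are not the replicate numbers of the sample titles. No label says that libraries of a group came from separate mice, so the p-values measure the spread between these libraries, which may be partly technical.

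Wnt ligands carry a lipid that the enzyme porcupine (Porcn) attaches, and without it they are not secreted. Wnt-C59 blocks porcupine. Secreted Wnt proteins stabilise beta-catenin in receiving cells, which drives hair follicle growth in skin and has also been linked to fibroblast activation. Belumosudil blocks ROCK2, a kinase that acts on the contractile cytoskeleton and, in T cells, on the balance between helper cells that make interleukin-17 or interleukin-21 and regulatory T cells. Chronic graft-versus-host disease of the skin combines infiltration by T cells and macrophages, interferon-gamma signalling, loss of sebaceous glands and hair follicles, loss of subcutaneous fat, and fibrosis.

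Total counts were 16258690 to 18008884 in the vehicle libraries and 19411678 to 28779816 in the combination libraries. Skin identity was clear in all 7, with the basal keratin Krt5 between 4977 and 12773 CPM (counts scaled to a common library size, not to gene length). Combination libraries 2 and 3 correlated with each other at r = 0.979 across genes and libraries 4 and 5 at 0.953, while pairs across these 2 sets had r between 0.891 and 0.929 (genes are not independent replicates). Vehicle and combination libraries also differed in features that no label names. Fractional values made up 31.07% to 34.39% of the non-zero entries of a vehicle library and 44.76% to 55.92% of those of a combination library. The nuclear RNA Malat1, picked here after seeing its values, had 2797 to 3501 CPM in the vehicle libraries against 71.9 to 136 CPM in the others. Log2 fold changes followed the GC content of the gene (Spearman correlation 0.541 across genes), and the median ran from −1.33 in the first of 10 equal bins of genes ordered by GC content to 0.99 in the last. Treatment cannot be told apart from a batch that runs along the same groups. Each result was therefore also computed after a smooth GC trend had been removed from every library, and results that this ended or turned are named beside them.

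**Figure D1:**
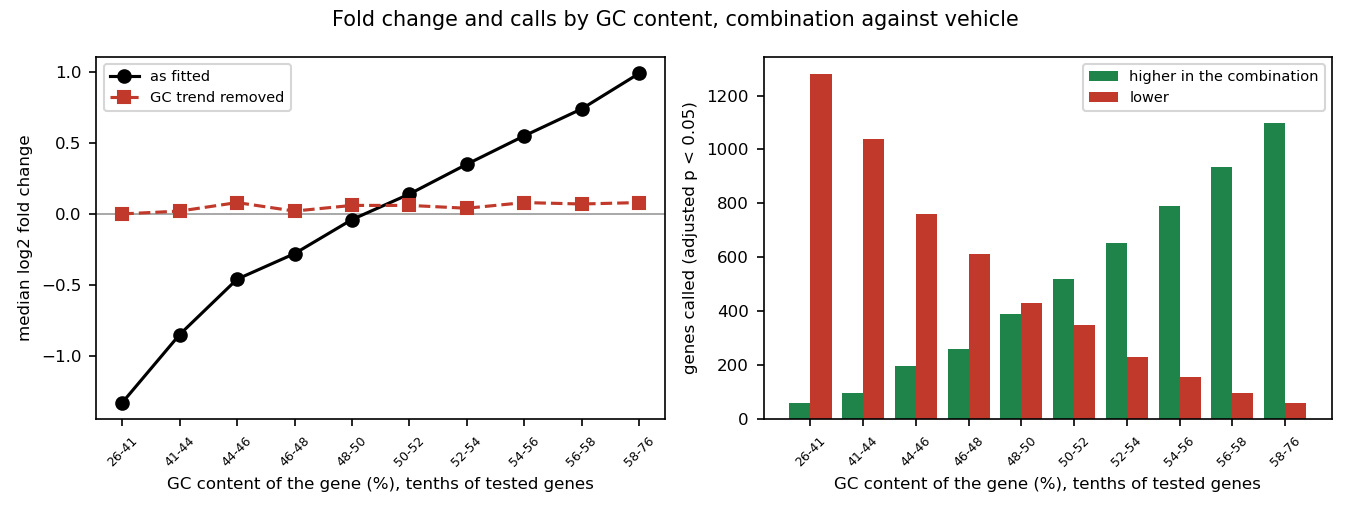
Left, median log2 fold change of the combination against vehicle (vertical axis) in 10 equal bins of the tested genes ordered by GC content in percent (horizontal axis), as fitted and after removal of the GC trend; right, numbers of genes called higher and lower in the same bins. The fitted median climbs from −1.33 to 0.99, and after removal it stays between 0 and 0.08.

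In edgeR's quasi-likelihood test with Benjamini-Hochberg adjustment, 10168 genes changed at an adjusted p under 0.05, which is 54.5% of those tested. Of these, 5055 were higher (27.1%) and 5113 lower (27.4%) in the combination, and 6530 changed by at least 2-fold (35.0%). Without libraries 4 and 5, 48.8% of the genes were called (23.6% higher, 25.2% lower), and without libraries 2 and 3, 49.1% (24.2% higher, 24.9% lower). All 4 combination libraries lay above all 3 vehicle libraries in 25.6% of genes and below them in 26.4%, together 52.0%. After removal of the trend 8143 genes were called (43.7%, with 23.0% higher and 20.7% lower), and 6118 of the 10168 were called with the same sign. With the adipocyte marker score of each library as a covariate 4671 were called (25.0%). A count of called members in a list is read below against these shares, and list medians against the median of all tested genes, 0.01. The lists are described by counts and medians, not by a set test. In bulk skin, fewer cells of a type and less RNA per cell cannot be told apart.

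**Figure D2:**
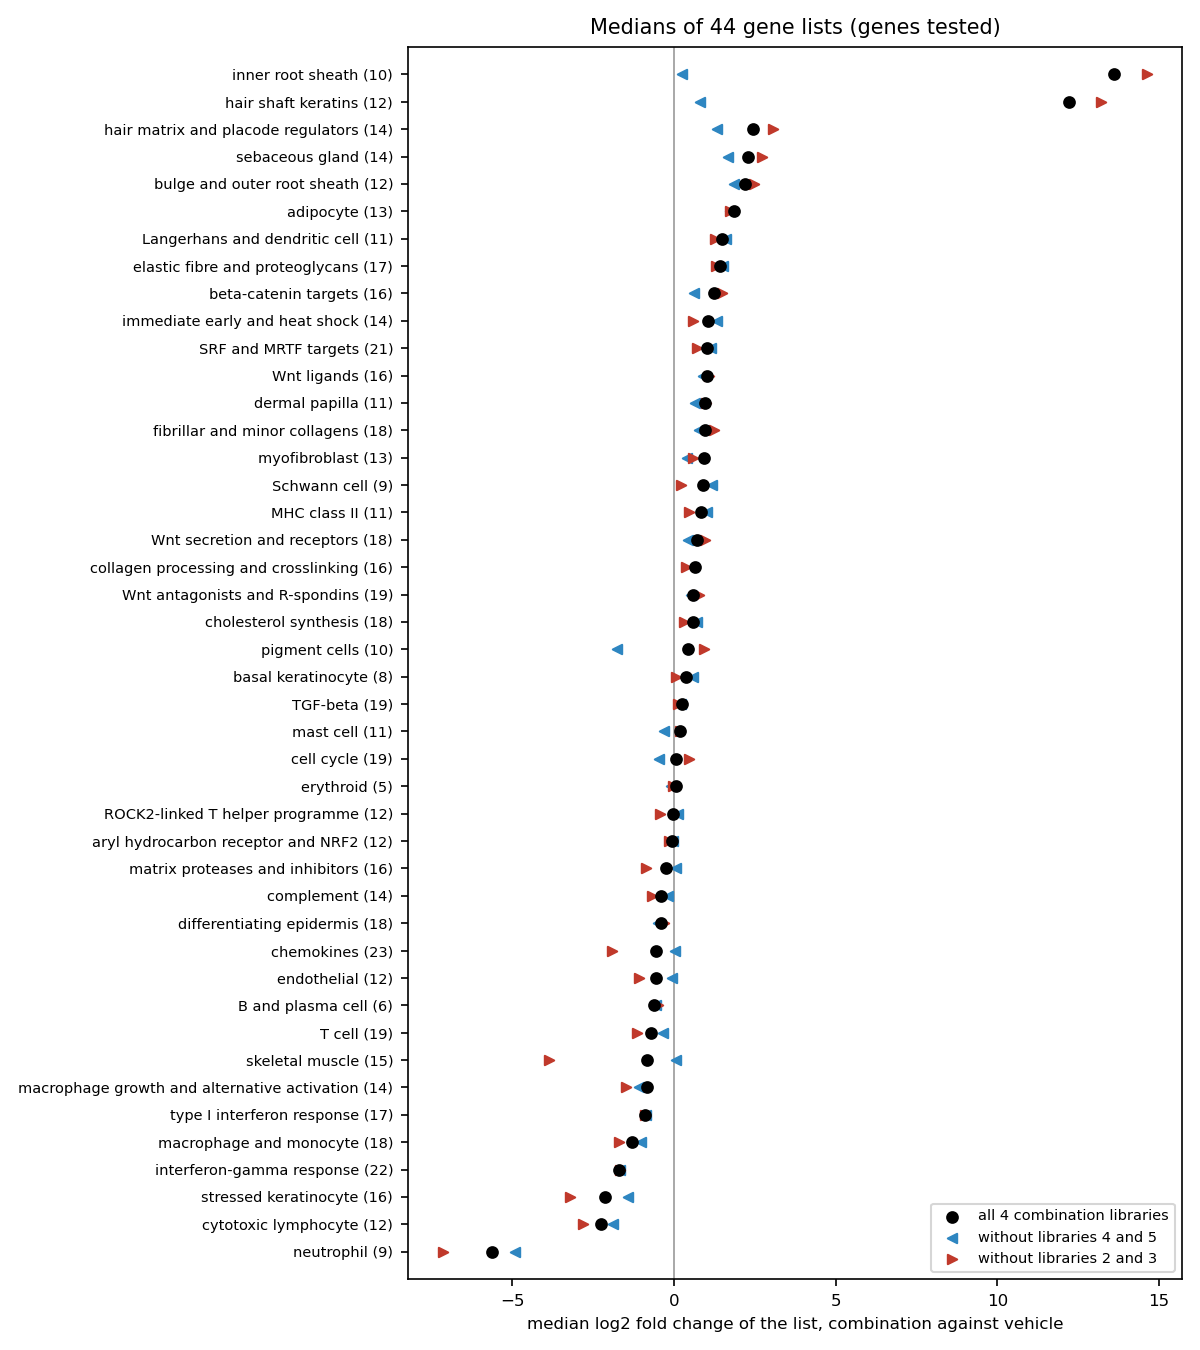
Median log2 fold change of the combination against vehicle (horizontal axis) for 44 gene lists (vertical axis, with the number of genes tested), from all 4 combination libraries (circles), without libraries 4 and 5 (left-pointing triangles) and without libraries 2 and 3 (right-pointing triangles). The hair keratin lists fall from medians of 13.62 and 12.21 to 0.24 and 0.79 without libraries 4 and 5, and the neutrophil list stays lowest under all 3 settings.

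Most sebaceous gland genes rose. Sebaceous glands secrete sebum, a mixture of wax esters, triglycerides and other lipids, onto the hair and skin. Of the 14 sebaceous genes 11 rose and 3 did not pass, with a median log2 fold change of 2.27, and the same counts were found without libraries 4 and 5, without libraries 2 and 3 and after removal of the GC trend.

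Far2 (ENSMUSG00000030303), which makes the fatty alcohols of wax esters, stood at 3.22, 2.45 and 2.2 CPM in vehicle libraries 1, 2 and 3. In combination libraries 2, 3, 4 and 5 it reached 156, 294, 164 and 146 CPM (log2 fold change 6.17, SE 0.31, adjusted p = 3.3e-08). The groups were far apart, and library 3 was highest. Awat1 (ENSMUSG00000015665), which joins those alcohols to fatty acids, was at 0, 0.239 and 0.338 CPM in vehicle and at 59.2, 116, 53.1 and 47.7 CPM in the combination (log2 fold change 8.42 with SE 0.56, adjusted p = 4.4e-07, and 9.09 without vehicle library 3). Its relative Awat2 rose by 7.43 and the desaturase Scd3 by 6.70 in log2 terms (adjusted p = 4e-06 and 2.2e-06, and 7.35 for Scd3 without vehicle library 3). Pparg, a transcription factor of sebocytes and fat cells, ranged from 7.11 to 11.3 CPM under vehicle and from 24.9 to 32.7 CPM under the combination (log2 fold change 1.55, adjusted p = 6.2e-05).

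Ces4a, Pnpla5 and Cyp2j12 were among the largest rises outside the lists. Ces4a, a carboxylesterase, was at 0, 0.18 and 0.169 CPM in vehicle and at 69.2, 143, 68.3 and 55.2 CPM in the combination (adjusted p = 2.6e-07). Pnpla5, a lipase of the patatin family, went from at most 0.299 CPM to between 41.7 and 92.9 CPM (adjusted p = 2.8e-07). Cyp2j12, a cytochrome P450, had no count in the vehicle libraries and 5.04, 13, 4.75 and 4.84 CPM in the combination, at least 39.1-fold higher against a floor of 3 counts per library. Library 3 had the highest value of the combination in each of these genes.

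Cholesterol synthesis genes were split. Of 18, 10 rose, 2 fell and 6 did not pass, with a median of 0.57. Mvd, an enzyme of the mevalonate steps, rose from 23, 23.9 and 21.3 CPM to 71.3, 97.9, 53.9 and 60.5 CPM (log2 fold change 1.64, SE 0.27, adjusted p = 0.00016). Every combination library lay above every vehicle library. Fdps and Mvk, of the same steps, rose by 1.47 and 1.46 (adjusted p = 0.00016 and 0.00017). Hsd17b7, a later enzyme of the same pathway, fell by 1.70 (adjusted p = 0.00019).

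The bulge and outer root sheath list, of the stem cell region of the hair follicle, had 9 members up, 0 down and 3 that did not pass, of 12, with a median of 2.18 (1.86 without libraries 4 and 5, with 9 up). Krt15 (ENSMUSG00000054146), a keratin of bulge stem cells and basal cells, was at 64.1, 162 and 120 CPM in vehicle and at 2346, 2324, 2242 and 2156 CPM in the combination (log2 fold change 4.29, SE 0.41, adjusted p = 3.9e-06). Its 4 combination values lay within a narrow band. Foxc1, which keeps bulge stem cells quiescent, rose from 4.13, 9.16 and 7.89 CPM to 71.6, 62.6, 129 and 84.2 CPM (log2 fold change 3.62, adjusted p = 2e-06). Lhx2, a transcription factor of follicle stem cells, rose by 4.67 (adjusted p = 4.5e-05, and 5.48 without vehicle library 2), Tcf7l1 by 2.46 (adjusted p = 4.2e-06) and Sox9 by 1.91 (adjusted p = 1.4e-05). Fgf18, a growth factor of the resting follicle, rose from 0.121, 0.898 and 0.0564 CPM to 12.2, 15.6, 5.14 and 9.5 CPM (log2 fold change 4.88, adjusted p = 5.1e-05, and 6.82 without vehicle library 2).

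Transcripts of growing hair were high in combination libraries 4 and 5 and near the vehicle level in libraries 2 and 3. This split was known from these same transcripts before the fits. For hair follicle genes, here and below, fits without either pair therefore only describe the split, and their p-values do not test it. The inner root sheath is the moulding layer around a growing hair, and hair shaft keratins build the fibre itself. Of 10 inner root sheath genes 9 rose, 0 fell and 1 did not pass (5 rose without vehicle library 1). Of 12 hair shaft keratins 9 rose, 0 fell and 3 did not pass. These calls depended on the test. With limma-voom 1 inner root sheath gene and 0 hair shaft keratins rose, and with DESeq2 9 and 12. With the adipocyte score as a covariate the counts were 1 and 0. Without libraries 4 and 5 the inner root sheath list had 3 up and 1 down and the hair shaft list 2 up and 0 down.

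Krt71 (ENSMUSG00000051879), an inner root sheath keratin, was at 0, 0.12 and 0.169 CPM in the 3 vehicle libraries. It was at 0.659, 0.914, 15144 and 2002 CPM in combination libraries 2, 3, 4 and 5 (log2 fold change 15.33, SE 3.70, adjusted p = 0.0042). Libraries 4 and 5 were far above the other 5 of the 7 libraries, and libraries 2 and 3 still lay above the vehicle (log2 fold change 2.92 without libraries 4 and 5, adjusted p = 0.0067). The log2 fold change was 12.65 without library 4 and 15.98 without vehicle library 3. Krt25, another keratin of that layer, was at 0.182, 0.419 and 0 CPM in vehicle and at 0, 0, 7647 and 1312 CPM in the combination (adjusted p = 0.01, and 0.083 without libraries 4 and 5). In the hair shaft, Krt35 was at 0.182, 0 and 0 CPM against 0.0388, 0.0962, 872 and 263 CPM, and Krt83 at 0.243, 0.0599 and 0.338 CPM against 0.776, 0.577, 1864 and 79.3 CPM (adjusted p = 0.0076 and 0.01). Neither passed without libraries 4 and 5 (adjusted p = 0.96 and 0.42). The medians of both lists, 13.62 and 12.21, are 10.95 and 11.24 with genes that had no vehicle count set to their lower bound.

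Several regulators of hair growth were highest in libraries 4 and 5 too. Shh, the signal of the growing hair matrix, was at 0, 0 and 0.0564 CPM in vehicle and at 0.233, 0.0481, 4.24 and 18.2 CPM in the combination (adjusted p = 0.0066, and 0.062 without libraries 4 and 5). Msx1, a matrix transcription factor, was at 0.668, 1.26 and 1.01 CPM against 2.68, 2.79, 21 and 20.5 CPM (log2 fold change 3.57, adjusted p = 0.00087, and 1.48, adjusted p = 0.00059, without libraries 4 and 5). Gli1, a target of Shh signalling, was at 5.83, 10.5 and 9.3 CPM against 17.9, 22.4, 60.9 and 95.8 CPM (log2 fold change 2.52, adjusted p = 0.00089, and 1.24, adjusted p = 0.0012, without libraries 4 and 5). Lef1, the nuclear partner of beta-catenin in the matrix, was at 3.89, 4.79 and 5.64 CPM in vehicle and at 2.37, 2.55, 26.3 and 26.2 CPM in the combination. It did not pass the test (log2 fold change 1.58, adjusted p = 0.089). Without libraries 4 and 5 it was lower than vehicle (log2 fold change −0.95, adjusted p = 0.033), and without libraries 2 and 3 higher (2.46, adjusted p = 0.00012). Of the 14 matrix and placode regulators 11 rose and 0 fell, and without libraries 4 and 5 the counts were 7 up and 2 down.

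The dermal papilla, the group of fibroblasts that directs the follicle, was less uniform, with 5 of 11 genes up, 1 down and 5 that did not pass. Corin, a papilla protease, was at 0.547, 0.419 and 0.62 CPM in vehicle and at 0.31, 0.673, 5.31 and 5.02 CPM in the combination (log2 fold change 2.40, adjusted p = 0.026), a call that ended when any vehicle library, library 4 or library 5 was left out (adjusted p = 0.061 to 0.079) or both of the last (−0.12, adjusted p = 0.88). Of 10 pigment cell genes 1 rose and 9 did not pass. The rise was that of Sox10, which Schwann cells also express (log2 fold change 0.92, adjusted p = 0.01, and −0.06, adjusted p = 0.87, after removal of the GC trend). Sox10 did not pass without libraries 2 and 3 (adjusted p = 0.1) or without vehicle library 1 (0.055). Without libraries 4 and 5, 7 of the 10 pigment genes were called lower, and the median was −1.76. The summed level of the 10 was 56.1, 54.3, 115 and 158 CPM in libraries 2, 3, 4 and 5, against 72.1 to 93.2 CPM in vehicle, so the same pair of libraries was high.

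**Figure D3:**
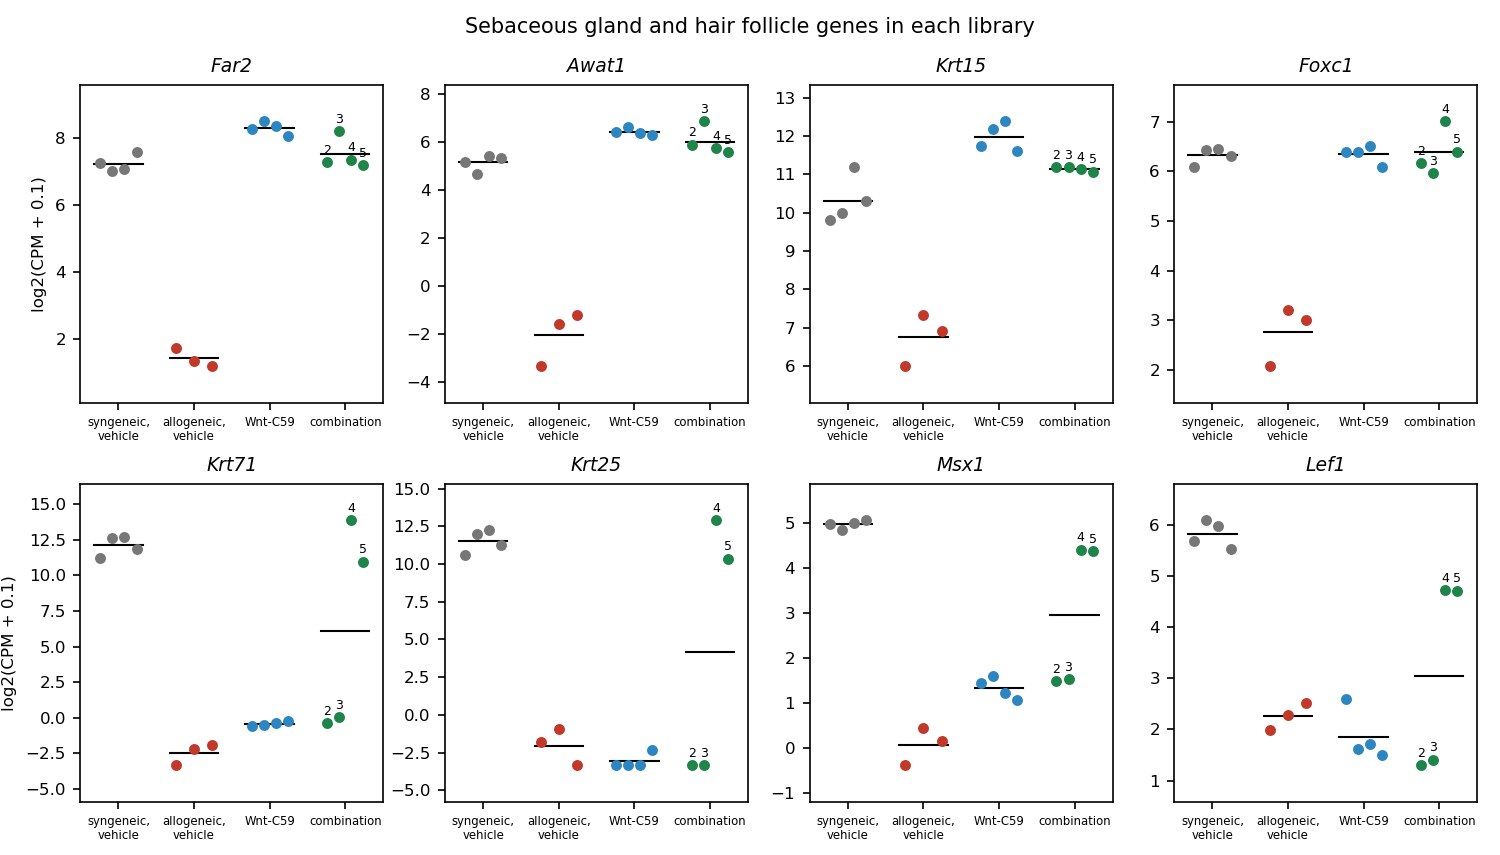
Level of 8 sebaceous and hair follicle genes as log2(CPM + 0.1) (vertical axis) in every library of the 4 groups (horizontal axis); points are libraries, lines are group means, and the combination libraries carry their column numbers. Far2, Awat1, Krt15 and Foxc1 are high in all 4 combination libraries, while Krt71, Krt25, Msx1 and Lef1 are high in libraries 4 and 5.

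Several interferon-gamma response genes fell and none rose. Interferon-gamma, made by T cells and natural killer cells, acts on promoters through the motif known as GAS and, by way of interferon regulatory factors, through the motif known as ISRE. Of the 22 genes of the list 0 rose, 13 fell and 9 did not pass, with a median of −1.69 (−1.48, with 12 down, after removal of the GC trend, and 8 down without libraries 4 and 5). Promoter sequences from RefSeq (build GRCm38.p6) were at hand for 14 of the 22. GAS, searched as TTCNNNGAA, was found in 6 of the 14 (42.9%) and in 9.6% of the 27025 genes whose promoters were searched. Promoters ran from 250 bases before to 50 after the start, and not every chromosome was searched. ISRE, searched as GAAA, any 2 bases and GAAA again, was found in 8 (57.1%) and in 4.0% of the searched genes. Of the genes with GAS, Igtp, Irf1, Irf8 and Psmb8 did not pass, and of those with ISRE, Cxcl10, Igtp and Socs1. Another 2 motifs were searched in other lists. CTTTGA, the TCF/LEF core, was found in 3 of 10 beta-catenin targets with promoters at hand (30.0%) and in 18.2% of searched genes. TCACNCCAC, known as SRE, was found in 1 of 12 cholesterol synthesis genes (8.3%) and in 1.4% of searched genes. Both strands were searched, and the motifs can overlap. A match is only a match of letters and not a binding site.

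The 250 bases before the start of 3 genes that fell, Gbp5, Irgm2 and Gbp2, are shown because they hold these motifs; they were chosen after their values were seen, and capitals mark GAS and ISRE matches on either strand. Gbp5 lies at chr3:142496684-142496933, Irgm2 at chr11:58214727-58214976 and Gbp2 at chr3:142620413-142620662, all on the plus strand of GRCm38.p6.
Gbp5: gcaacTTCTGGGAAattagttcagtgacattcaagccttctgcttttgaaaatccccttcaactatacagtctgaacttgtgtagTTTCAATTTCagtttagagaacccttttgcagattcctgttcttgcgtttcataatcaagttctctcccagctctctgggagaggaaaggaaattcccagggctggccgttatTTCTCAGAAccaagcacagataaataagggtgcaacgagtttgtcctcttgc
Irgm2: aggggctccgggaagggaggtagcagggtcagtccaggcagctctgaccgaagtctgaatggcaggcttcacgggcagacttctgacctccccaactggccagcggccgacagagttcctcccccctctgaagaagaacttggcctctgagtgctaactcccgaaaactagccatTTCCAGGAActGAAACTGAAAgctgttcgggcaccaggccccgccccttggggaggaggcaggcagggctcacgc
Gbp2: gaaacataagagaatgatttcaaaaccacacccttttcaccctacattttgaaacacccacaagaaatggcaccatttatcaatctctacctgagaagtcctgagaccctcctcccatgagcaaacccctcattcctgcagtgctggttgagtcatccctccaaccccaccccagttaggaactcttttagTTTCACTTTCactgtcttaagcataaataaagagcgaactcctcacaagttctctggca
Gbp5, with 3 matches, encodes a guanylate-binding protein that acts against microbes inside cells. It was at 94.2, 102 and 100 CPM in vehicle and at 24.1, 9.57, 15 and 26.6 CPM in the combination (log2 fold change −2.39, SE 0.59, adjusted p = 0.0042). Gbp2, with 1 match, fell by 1.63 (adjusted p = 0.0094, and 0.062 without libraries 4 and 5). Irgm2, a GTPase of the same defence with 2 matches, fell by 1.87 (adjusted p = 0.022, 0.067 after removal of the GC trend, 0.088 without libraries 4 and 5 and 0.074 without libraries 2 and 3). Its call also ended without vehicle library 2 (−1.37, adjusted p = 0.11), combination library 3 (0.052) or combination library 4 (0.053). All 4 combination libraries were below all 3 vehicle libraries in each of the 3 genes.

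Cxcl9 (ENSMUSG00000029417), the interferon-gamma-induced chemokine that draws T cells, was at 675, 264 and 360 CPM in vehicle and at 52.8, 18.1, 33.4 and 38.9 CPM in the combination (log2 fold change −3.60, SE 0.72, adjusted p = 0.0011). The groups did not overlap. Gbp4 and Gbp6 fell by 2.56 and 2.88 (adjusted p = 0.0013 and 0.0012). Nlrc5, which drives MHC class I genes, fell from 221, 204 and 240 CPM to 100, 52.2, 70.2 and 87.8 CPM (log2 fold change −1.52, adjusted p = 0.00033). Library 3 had the lowest value of the combination in all 4 of these genes. Of 17 genes of the type I interferon response 0 rose, 4 fell and 13 did not pass (2 down after removal of the GC trend). The share that fell was near that over all genes (27.4%). Ifit2, an antiviral protein, fell from 20.7, 50.1 and 36.1 CPM to 5.74, 2.21, 3.22 and 7.78 CPM (log2 fold change −2.90, adjusted p = 0.0012).

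Chemokines went both ways, with 6 up, 10 down and 7 that did not pass of 23 (7 up and 5 down without libraries 4 and 5, 5 up and 6 down after removal of the GC trend). Ccl8 stood at 1447, 1199 and 1203 CPM in vehicle and at 291, 156, 121 and 266 CPM in the combination (log2 fold change −2.62, SE 0.33, adjusted p = 2.3e-05). Ccl6 fell by 2.08 (adjusted p = 0.00016). Ccl3 and Ccl4 had one very high vehicle library, with 135, 2.1 and 9.47 CPM for Ccl3 and 166, 4.07 and 8.57 CPM for Ccl4. In the combination Ccl3 was between 0.17 and 1.71 CPM and Ccl4 between 0.17 and 2.68 CPM (log2 fold changes −5.77 and −5.61, adjusted p = 0.003 and 0.0053). Without vehicle library 1 these were −2.71 (adjusted p = 0.037) and −2.39 (adjusted p = 0.079), and Ccl4 was at −6.40 without combination library 2.

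Among chemokines that rose, Cxcl14, made by resting epidermis, went from 48.5, 68.3 and 71.9 CPM to 301, 323, 514 and 182 CPM (log2 fold change 2.39, adjusted p = 5e-05). Ccl19, which guides dendritic cells and naive T cells, went from 0.486, 0.958 and 0.62 CPM to 27.6, 12.1, 6.56 and 18.1 CPM (log2 fold change 4.54, adjusted p = 0.00021). In both genes every combination library lay above every vehicle library.

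Of 18 macrophage and monocyte markers 0 rose, 12 fell and 6 did not pass, with a median of −1.31 and a summed level of 1222 to 2018 CPM in the combination against 3155 to 4890 CPM in vehicle (7 down without libraries 4 and 5). Lyz2, lysozyme, stood at 1801, 1835 and 2134 CPM in vehicle and at 940, 668, 559 and 706 CPM in the combination (log2 fold change −1.42, SE 0.24, adjusted p = 0.00023). Mrc1, the mannose receptor, fell by 1.98 (adjusted p = 0.0006) and Mpeg1, a pore-forming protein of macrophages, by 2.19 (adjusted p = 0.00032). Ccr2, the receptor of inflammatory monocytes, fell by 1.73 (adjusted p = 0.0011), but by 0.42 with an adjusted p of 0.35 after removal of the GC trend.

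In the list of macrophage growth and alternative activation 2 of 14 rose, 6 fell and 6 did not pass. Chil3 and Chil4, chitinase-like proteins of alternatively activated macrophages, are near-identical copies whose reads may be split. Chil3 was at 1362, 97.7 and 1434 CPM in vehicle and at 11.5, 16.5, 0.848 and 1.72 CPM in the combination (log2 fold change −6.98 with SE 1.42, adjusted p = 0.0015, and −7.67 without combination library 3). Chil4 was at 583, 13 and 351 CPM against 0.0776, 0.0481, 0 and 0 CPM (adjusted p = 0.0016, and 0.059 without libraries 2 and 3). Spp1, osteopontin, was at 412, 12.9 and 72.6 CPM against 13.1, 12, 10.9 and 7.69 CPM (log2 fold change −3.93, adjusted p = 0.0011, and −1.97 without vehicle library 1). Il34, a ligand of the macrophage receptor Csf1r that keratinocytes make, rose from 11.4, 30.7 and 15.7 CPM to 75.6, 56.8, 40.8 and 76.5 CPM (log2 fold change 1.70, adjusted p = 0.00048).

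Neutrophil genes rested on vehicle library 1. The list had 0 up, 6 down and 3 that did not pass of 9, and its median of −5.63 was −2.52, with 3 down, without that library. Its summed level was 4323, 139 and 659 CPM in vehicle libraries 1, 2 and 3 and 24.5 to 195 CPM in the combination. S100a8, a subunit of calprotectin that stressed keratinocytes make too, stood at 1557, 24.2 and 172 CPM in vehicle and at 6.56, 10.9, 3.62 and 2.17 CPM in the combination (log2 fold change −6.65, adjusted p = 0.0011, and −4.07, adjusted p = 0.0036, without vehicle library 1). Ly6g, the defining neutrophil marker, was too low to be tested, with 112, 1 and 2 counts in the vehicle libraries and 3 in all of the combination.

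T cell and cytotoxic genes were lower in part. Of 19 T cell genes 1 rose, 8 fell and 10 did not pass, and the number that fell was 2 without vehicle library 3, 5 without vehicle library 1 4 without combination library 4 or 5 and 2 without both. Cd3e, part of the complex that carries the T cell receptor, was at 10.7, 8.32 and 12.9 CPM in vehicle and at 8.61, 3.61, 4.52 and 5.07 CPM in the combination (log2 fold change −0.96, SE 0.33, adjusted p = 0.023). The groups overlapped, and the call ended in turn without vehicle library 1 or 3 and without combination library 3, 4 or 5 (adjusted p = 0.051 to 0.096) after removal of the GC trend (0.42) and without libraries 4 and 5 (0.13). Cd8a, the co-receptor of cytotoxic T cells, fell from 14.8, 8.44 and 21.1 CPM to 3.53, 3.37, 2.49 and 1.85 CPM (log2 fold change −2.39, adjusted p = 0.00076). Cd28, a costimulatory receptor, fell by 3.01 (adjusted p = 0.00019).

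Of 12 cytotoxic genes 0 rose, 9 fell and 3 did not pass, with a median of −2.27. Gzma, a granzyme, was at 19.3, 2.87 and 12 CPM in vehicle and at 2.17, 0.289, 0.622 and 0.633 CPM in the combination (log2 fold change −3.58, adjusted p = 0.0013, and −2.97 without vehicle library 1 or −4.45 without combination library 2). Prf1, perforin, fell by 2.12 (adjusted p = 0.0014), Fasl, the ligand of the death receptor Fas, by 3.25 (adjusted p = 0.00017) and Eomes, a transcription factor of these cells, by 3.23 (adjusted p = 0.0011). Klrd1, a natural killer receptor chain, fell by 1.75 (adjusted p = 0.0029), and stood at −0.04 (adjusted p = 0.95) after removal of the GC trend.

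Genes of the T helper programme tied to ROCK2 were called at about the shares over all genes (27.1% higher, 27.4% lower). Of the 18 genes of that list 12 could be tested, and 3 rose, 3 fell and 6 did not pass. Il17a and Il22 had no count in any of the 7 libraries, Il17f had 0 counts in vehicle and 5 in the combination, Il21 had 16 and 0, Il23r 16 and 7, and Cxcr5 14 and 11. Foxp3, which defines regulatory T cells, was at 1.21, 1.98 and 1.92 CPM in vehicle and at 7.25, 4.18, 2.2 and 4.25 CPM in the combination (log2 fold change 1.39, SE 0.44, adjusted p = 0.016). All 4 values lay above all 3, but the call ended after removal of the GC trend (adjusted p = 0.12), without vehicle library 1 (0.066), without combination library 2 (0.055) and without libraries 2 and 3 (0.13). Ikzf2, another factor of regulatory T cells, fell by 2.20 (adjusted p = 2.6e-05). Stat3, the signal transducer of interleukin-6 and interleukin-21, was at 295, 227 and 380 CPM against 315, 357, 176 and 197 CPM and did not pass the test (log2 fold change −0.20, adjusted p = 0.5). B cell genes were mostly too low to test.

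MHC class II genes, of antigen presentation, were called higher at about the share over all genes (27.1%). Of 11 such genes 3 rose, 1 fell and 7 did not pass, with a median of 0.83. The count that rose was 0 after removal of the GC trend, without libraries 2 and 3, and without vehicle library 1, vehicle library 3 or combination library 2 alone. It was 1 without combination library 3 and 5 without vehicle library 2. H2-Ab1, a class II chain, was at 428, 1055 and 730 CPM in vehicle and at 2401, 1520, 851 and 1431 CPM in the combination (log2 fold change 1.07, adjusted p = 0.028), with overlap between the groups. The call ended after removal of the GC trend (adjusted p = 0.45) and without vehicle library 1 (0.12), vehicle library 3 (0.072), combination library 2 (0.09) or libraries 2 and 3 (0.22). The protease Ctss, which matures class II molecules, fell from 1000, 856 and 1203 CPM to 307, 189, 137 and 280 CPM (log2 fold change −2.16, adjusted p = 0.00013).

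Markers of Langerhans and dendritic cells, 7 of 11, rose, 0 fell and 4 did not pass (4 rose without vehicle library 1 or 3), with a median of 1.47. Cd207, langerin of Langerhans cells, was at 0.121, 7.07 and 0.113 CPM in vehicle and at 31.6, 23.5, 23.7 and 26.1 CPM in the combination (log2 fold change 3.43 with SE 1.07, adjusted p = 0.017, and 7.74 without vehicle library 2). Flt3, a growth factor receptor of dendritic cells, rose from 0.547, 1.14 and 0.733 CPM to 3.84, 6.97, 1.98 and 4.12 CPM (log2 fold change 2.38, adjusted p = 0.00033). Cd209a rose by 2.97 (adjusted p = 0.0029). Of 11 mast cell genes 1 rose and 1 fell, against 27.1% higher and 27.4% lower over all genes. Of 14 complement genes 2 rose and 4 fell, the latter near that share. The 4 became 2 without vehicle library 1, vehicle library 3 or combination library 4, and 6 without combination library 2.

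**Figure D4:**
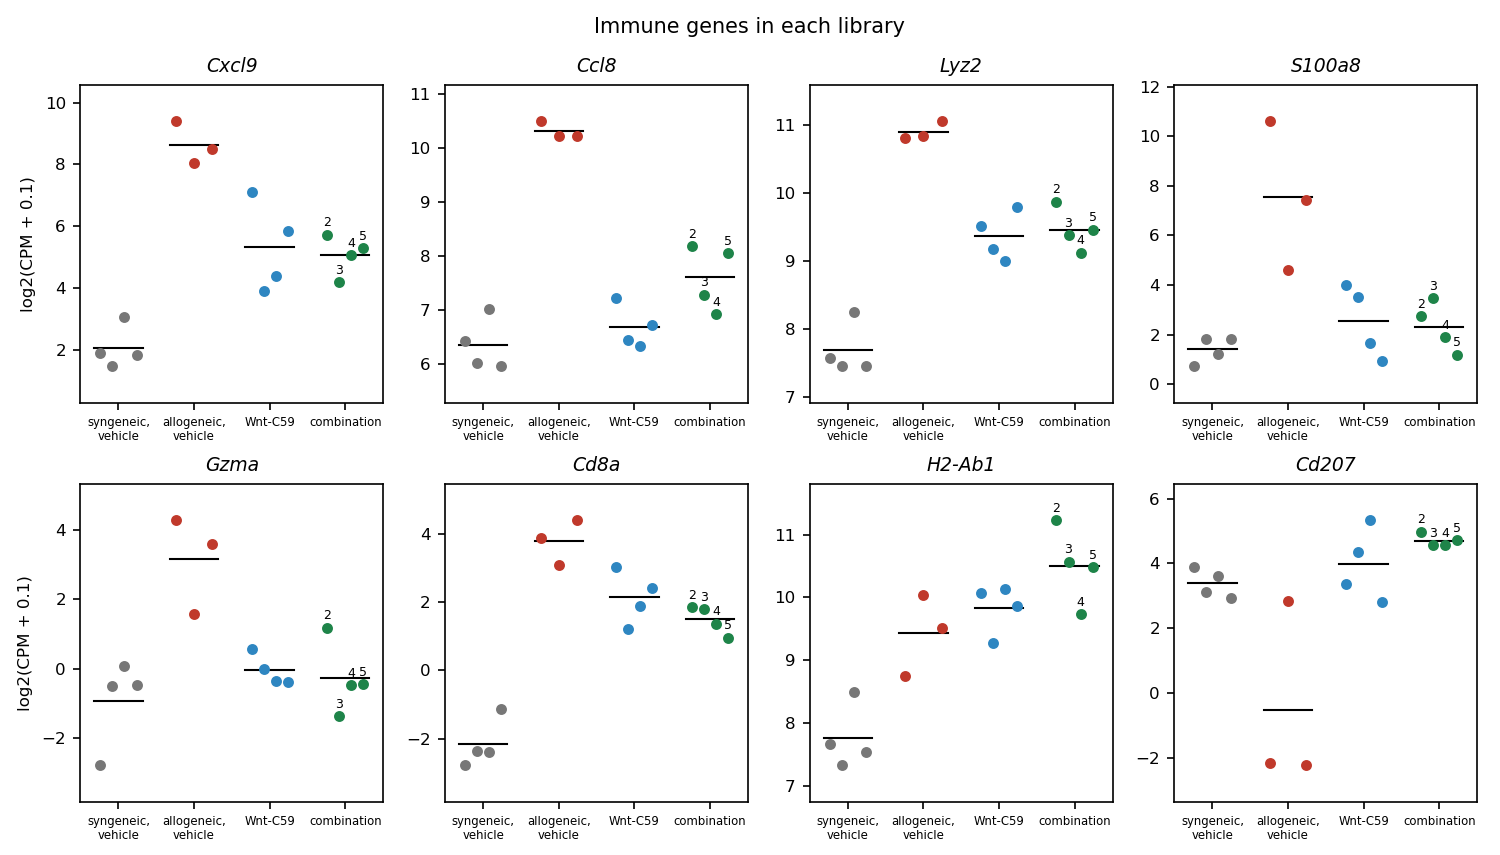
Level of 8 immune genes as log2(CPM + 0.1) (vertical axis) in every library of the 4 groups (horizontal axis); points are libraries, lines are group means, and the combination libraries carry their column numbers. Cxcl9, Ccl8, Lyz2, S100a8, Gzma and Cd8a are lower in all 4 combination libraries than in the allogeneic vehicle libraries, while H2-Ab1 overlaps and Cd207 is higher.

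In the epidermis, stress genes fell unevenly. Of 16 genes of the stressed keratinocyte 1 rose, 9 fell and 6 did not pass, with a median of −2.14 (−1.42 with 5 down without libraries 4 and 5, −3.23 with 11 down without libraries 2 and 3). Stfa2 and Stfa3, stefin protease inhibitors with near-identical copies, fell (log2 fold changes −7.74 and −6.93, adjusted p = 0.00026 and 0.0011, and −7.07 for Stfa2 without vehicle library 1). Sprr2d, of the cornified envelope, fell by 3.45 (adjusted p = 0.0045, and 2.62 without vehicle library 1). Krt16, a keratin of wounded and inflamed epidermis chosen after its values were seen, was at 4156, 3141 and 4983 CPM in vehicle and at 1451, 5124, 277 and 595 CPM in the combination and did not pass the test (log2 fold change −1.14, adjusted p = 0.31). Library 3 was above every vehicle library in that gene, and without it Krt16 passed (−2.40, adjusted p = 0.033). Krt17, a keratin of stressed epidermis and of the outer root sheath, rose from 1611, 854 and 1351 CPM to 4813, 5971, 6855 and 3119 CPM (log2 fold change 2.03, adjusted p = 0.00025).

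Tmprss11b, Serpinb3a and Saa3 were among the largest falls outside the lists. Tmprss11b, a serine protease, was at 84.2, 3.23 and 23.1 CPM in vehicle and at 0, 0, 0.113 and 0.0905 CPM in the combination (adjusted p = 9.4e-05). Serpinb3a, a serpin, was at 207, 13.6 and 56.7 CPM against 0.0388 to 0.407 CPM (log2 fold change −8.82, adjusted p = 0.0001, −7.42 without vehicle library 1 and −9.45 without combination library 5). Saa3, an acute-phase protein, was at 563, 78.9 and 446 CPM against 2.25, 15.6, 5.54 and 1.76 CPM (log2 fold change −5.85, adjusted p = 0.0013, and −6.84 without combination library 3). Vehicle library 2 had the lowest vehicle value in each of these genes.

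Genes of basal and differentiating epidermis had list medians of 0.36 and −0.40. Log2 fold changes of single members ran from −1.23 to 1.33 and from −6.08 to 0.93. Krt5 rose by 1.03 (adjusted p = 0.001, and 0.32 with an adjusted p of 0.2 after removal of the GC trend). Trp63, the master transcription factor of basal keratinocytes, fell from 276, 252 and 300 CPM to 105, 115, 128 and 138 CPM (log2 fold change −1.18, adjusted p = 3.2e-05). Of 18 differentiation genes 1 rose, 6 fell and 11 did not pass. Hrnr, hornerin of the granular layer, was at 437, 1406 and 1538 CPM in vehicle and at 110, 88.8, 85.7 and 175 CPM in the combination (log2 fold change −3.29, adjusted p = 0.00053). Flg, filaggrin, fell by 2.91 (adjusted p = 0.0012, and 1.88 without vehicle library 3), Cers3, the ceramide synthase of the skin barrier, by 1.38 (adjusted p = 1.4e-05) and Abca12, its lipid transporter, by 1.22 (adjusted p = 0.00015).

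Of 18 collagens 12 rose, 3 fell and 3 did not pass, with a median of 0.96. After removal of the GC trend 4 rose and 2 fell, with a median of 0.20, and without libraries 4 and 5 the count was 6 up and 2 down. Col1a1, of the main collagen of the dermis, was at 538, 304 and 333 CPM in vehicle and at 1031, 860, 1708 and 2492 CPM in the combination (log2 fold change 1.96, SE 0.45, adjusted p = 0.0021). Libraries 4 and 5 were highest, and the fold was 1.27 (adjusted p = 0.033) without them. Col3a1, its partner, was at 1014, 435 and 499 CPM against 1038, 991, 1666 and 1759 CPM, with overlap (log2 fold change 1.07, adjusted p = 0.0096, 0.065 after removal of the GC trend and 0.16 without libraries 4 and 5). Col6a1 and Col6a2, of microfibrils, rose by 1.91 and 2.01 (adjusted p = 6.8e-05 and 7e-05). Col8a1 fell by 2.81 (adjusted p = 0.00014, and 2.15 without vehicle library 2) and Col7a1, of the anchoring fibrils under the epidermis, by 1.08 (adjusted p = 0.00094).

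Crosslinking enzymes moved in opposite directions. Lox, lysyl oxidase, was at 114, 55.6 and 80.2 CPM in vehicle and at 15.7, 12.3, 19.2 and 15.1 CPM in the combination (log2 fold change −2.42, SE 0.32, adjusted p = 3.4e-05). Its relative Loxl1, which acts on elastin, was at 29.3, 31 and 24.8 CPM against 211, 174, 101 and 133 CPM (log2 fold change 2.45, SE 0.32, adjusted p = 2.8e-05). Neither gene had overlapping groups. Of 16 genes of collagen processing 8 rose, 3 fell and 5 did not pass, Serpinh1, the collagen chaperone, and Pcolce, an enhancer of procollagen cleavage, among the first (2.06 and 2.02, adjusted p = 7.5e-05 and 0.00015).

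Of 17 elastic fibre and proteoglycan genes 13 rose, 0 fell and 4 did not pass, and after removal of the GC trend the counts were equal. Eln, elastin, was at 33.8, 30.4 and 45.1 CPM in vehicle and at 197, 192, 305 and 196 CPM in the combination (log2 fold change 2.61, SE 0.31, adjusted p = 1.7e-05). Mfap4, a microfibril protein that binds elastin, went from 8.81, 12.2 and 6.31 CPM to 193, 146, 187 and 173 CPM (log2 fold change 4.26, adjusted p = 3.5e-05). Of 16 proteases and inhibitors 1 rose, 4 fell and 11 did not pass, with a median of −0.24. The share that fell was near that over all genes (27.4%). Without libraries 4 and 5, 2 rose and 4 fell (median 0.07), and without libraries 2 and 3, 1 rose and 6 fell (median −0.86). Mmp12, macrophage elastase, was at 235, 39.2 and 293 CPM against 18.7, 4.09, 7.23 and 18.9 CPM (log2 fold change −3.94, adjusted p = 0.0008), and Mmp13, a collagenase, at 397, 19.7 and 252 CPM against 9.89, 10, 0.396 and 1.22 CPM (log2 fold change −5.36, adjusted p = 0.01, −4.65 without vehicle library 1, and adjusted p = 0.055 without libraries 4 and 5).

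SRF and MRTF control the transcription of contractile genes. In a list of 21 genes, these factors and their targets, 13 rose, 2 fell and 6 did not pass, with a median of 1.02. After removal of the GC trend 10 rose and 2 fell (median 0.27). The factor genes Srf and Mrtfa were among the 13, and Mrtfb was among the 2. Of 13 myofibroblast genes 6 rose and 0 fell. Acta2, smooth muscle actin, was at 129, 188 and 185 CPM in vehicle and at 566, 498, 374 and 338 CPM in the combination (log2 fold change 1.41 with SE 0.29, adjusted p = 0.001, and 1.44 after removal of the GC trend). Ccn2, a matricellular target of TGF-beta, rose by 1.18 (adjusted p = 0.0014). Zyx, zyxin of focal adhesions, rose by 1.43 and its neighbour at the adhesion Vcl, vinculin, fell by 1.63 (adjusted p = 2.8e-05 and 2.7e-05). Of 19 TGF-beta pathway genes 5 rose, 3 fell and 11 did not pass, against 27.1% higher and 27.4% lower over all genes. The receptor Tgfbr1 fell from 75.9, 48.5 and 67.9 CPM to 16.1, 18, 19.7 and 16.7 CPM (log2 fold change −1.86, adjusted p = 6.7e-06). Ltbp2, a matrix protein related to those that bind latent TGF-beta, rose by 1.52 (adjusted p = 7.5e-05).

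The mRNAs of the drug targets did not all differ from vehicle, and the cause of the differences was not tested. Rock2, the target of belumosudil, was at 117, 124 and 118 CPM in vehicle and at 36.4, 39.8, 44.8 and 37.7 CPM in the combination (log2 fold change −1.59 with SE 0.17, adjusted p = 7.7e-06, and −0.53, adjusted p = 0.0083, after removal of the GC trend). Its sister kinase Rock1 was at 108, 77.2 and 91.8 CPM against 13, 14.2, 16.1 and 19.1 CPM (log2 fold change −2.56 with SE 0.23, adjusted p = 3.1e-06, and −1.37 after removal of the GC trend). Both were lower in every combination library. Ppp1r12a, the myosin phosphatase subunit that ROCK phosphorylates, was at 108, 85.9 and 111 CPM in vehicle and at 27.2, 29.2, 36.9 and 38 CPM in the combination (log2 fold change −1.63, SE 0.18, adjusted p = 1e-05, and −0.41, adjusted p = 0.02, after removal of the GC trend).

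Porcn, the target of Wnt-C59, was at 51.8, 18.9 and 54.1 CPM in vehicle and at 22, 24, 34.8 and 22.4 CPM in the combination. It did not pass the test (log2 fold change −0.69, SE 0.33, adjusted p = 0.091), but did so after removal of the GC trend (−1.26, adjusted p = 0.0096) without vehicle library 2 (−1.04, adjusted p = 0.0063) and, at the threshold, without combination library 4 (−0.87, adjusted p = 0.05). Neither drug acts on the mRNA of its target, so these levels do not measure inhibition.

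Of 16 Wnt ligands 10 rose, 1 fell and 5 did not pass, with 2 up and 1 down after removal of the GC trend. Wnt11 was at 2, 1.56 and 1.92 CPM in vehicle and at 13.4, 10.5, 92.2 and 27.5 CPM in the combination (log2 fold change 4.29 with SE 0.69, adjusted p = 0.0002, and 3.23 without library 4). Wnt5b, a ligand of beta-catenin-independent signalling, rose by 2.48 (adjusted p = 5.2e-05). Wnt2b fell by 1.63 (adjusted p = 0.0013). Of 18 genes of Wnt secretion and reception 10 rose, 2 fell and 6 did not pass. Without libraries 4 and 5 the counts were 6 up and 5 down, and without library 4 alone 9 up and 4 down. The receptors Fzd1, Fzd2 and Fzd8 rose by 1.75, 2.23 and 1.73 (adjusted p = 3.4e-05, 7.7e-06 and 1e-05). The co-receptor Lrp6 fell from 113, 94.2 and 137 CPM to 28.2, 27.9, 51.7 and 39.2 CPM (log2 fold change −1.64, adjusted p = 5.2e-05), and its relative Lrp5 rose by 0.95 (adjusted p = 6.8e-05).

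Of 19 Wnt antagonists and R-spondins 10 rose, 1 fell and 8 did not pass (5 up after removal of the GC trend and 6 up without libraries 4 and 5). Wif1, a secreted Wnt inhibitor, rose by 1.78 (adjusted p = 0.0012). Axin2, the usual readout of beta-catenin signalling, was at 20.2, 38.8 and 35.6 CPM in vehicle and at 19.7, 21.2, 18 and 33.9 CPM in the combination, and it did not pass the test (log2 fold change −0.44, SE 0.38, adjusted p = 0.34). The groups overlapped. Of 16 beta-catenin targets 10 rose, 1 fell and 5 did not pass, with a median of 1.22 (0.62, with 5 up and 2 down, without libraries 4 and 5, and 5 up and 1 down after removal of the GC trend). Nkd1, a feedback inhibitor of the pathway, was at 5.41, 10.6 and 6.54 CPM against 16.1, 16.2, 17.2 and 21.3 CPM (log2 fold change 1.24, adjusted p = 0.0011). Bambi, a decoy receptor of TGF-beta, was at 3.22, 3.11 and 1.92 CPM against 4.81, 7.26, 102 and 26.5 CPM (log2 fold change 3.67, adjusted p = 0.0051, and 2.22 without library 4). Libraries 4 and 5 were again the highest in Wnt11 and Bambi.

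**Figure D5:**
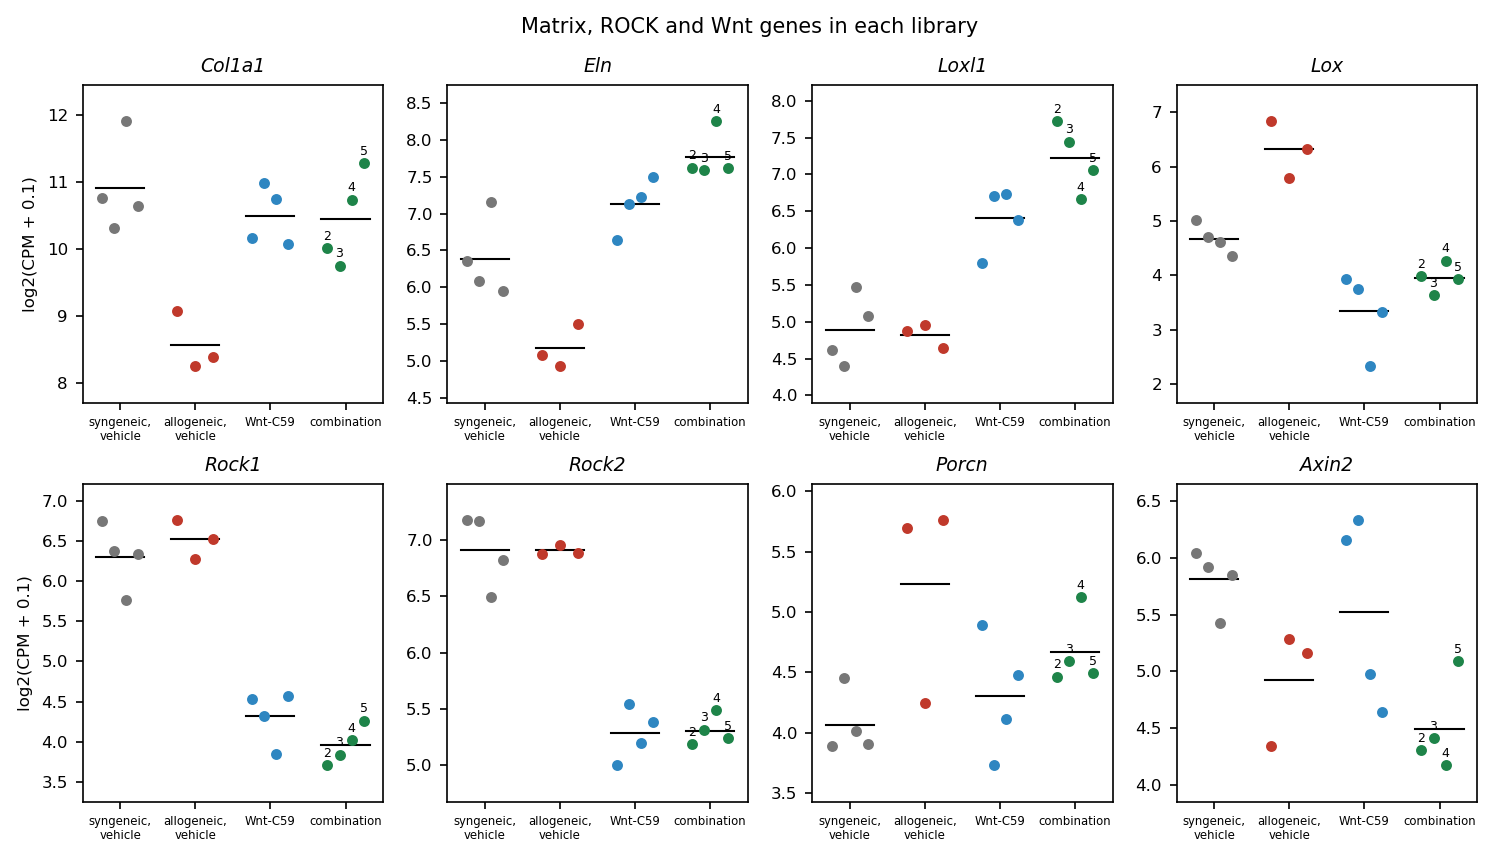
Level of 8 matrix, ROCK and Wnt genes as log2(CPM + 0.1) (vertical axis) in every library of the 4 groups (horizontal axis); points are libraries, lines are group means, and the combination libraries carry their column numbers. Col1a1, Eln and Loxl1 are higher and Lox, Rock1 and Rock2 lower in all 4 combination libraries than in allogeneic vehicle, while Porcn and Axin2 overlap.

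Markers of other tissues in the sample varied as well. Of 13 adipocyte markers 10 rose, 0 fell and 3 did not pass, and their summed level was 1086, 3278 and 1925 CPM in vehicle and 4121 to 6024 CPM in the combination. Lep, leptin, was at 1.09, 3.53 and 0.338 CPM in vehicle and at 33.5, 23.2, 26.2 and 28 CPM in the combination (log2 fold change 4.07 with SE 0.67, adjusted p = 0.00023, and 5.28 without vehicle library 2). Pnpla2, the lipase that starts fat breakdown, rose by 1.82 (adjusted p = 0.00013). With the adipocyte score as a covariate, 47 of the 132 genes named here lost their call, among them Krt71, Krt25, Msx1, Pparg, Cd8a, Gzma, Prf1, Chil3, Mrc1, S100a8, Acta2, Col1a1, Mki67 and Foxp3, while Far2, Krt15, Ccl8, Lyz2, Eln, Lox, Rock1, Rock2 and Cyp1a1 passed. Some folds stayed near their size although the call ended, such as Krt71 at 14.54 (adjusted p = 0.062) and Col1a1 at 1.94 (adjusted p = 0.089), and others shrank, such as S100a8 at −1.82 (adjusted p = 0.61) and Foxp3 at 0.28 (adjusted p = 0.79). Skeletal muscle of the layer beneath the skin differed between libraries of one group. None of its 15 genes passed, and their summed level was 10105 to 42092 CPM in vehicle and 39056, 15409, 3062 and 38.4 CPM in combination libraries 2, 3, 4 and 5. Myh4, a fast muscle myosin, was at 3931, 1787, 248 and 0.136 CPM in these libraries and at 2701, 9125 and 6212 CPM in vehicle. With the muscle score as a covariate 9677 genes were called.

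Of 12 endothelial genes 0 rose, 5 fell and 7 did not pass, against 27.4% lower over all genes, with a median of −0.56. Without libraries 4 and 5, 3 fell (median −0.06), against 25.2% of all genes in that fit. Without libraries 2 and 3, 9 fell (median −1.08), against 24.9%. Vcam1, an adhesion molecule of inflamed vessels, fell from 126, 59.8 and 119 CPM to 15.6, 15, 9.44 and 30.4 CPM (log2 fold change −2.53, adjusted p = 0.00021), and Prox1, of lymphatic vessels, by 2.69 (adjusted p = 1.6e-05). Of 9 Schwann cell genes 4 rose and 2 fell. None of 5 erythroid genes passed.

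Cell cycle genes moved in both directions. Mcm5 and Mcm2, of the helicase that opens replication origins, rose by 1.68 and 1.49 (adjusted p = 0.00011 and 0.00019). Mki67, present in all dividing cells, fell from 199, 82.4 and 133 CPM to 17.4, 22.5, 42 and 65.3 CPM (log2 fold change −1.91, SE 0.41, adjusted p = 0.0015). Top2a, of dividing cells too, fell by 1.04 (adjusted p = 0.0038, and by 0.27 with an adjusted p of 0.36 after removal of the GC trend). In all 7 of 19 rose, 4 fell and 8 did not pass, against 27.1% higher and 27.4% lower over all genes. The count down was 2 without vehicle library 1 and 1 after removal of the GC trend. Without libraries 4 and 5, 6 rose and 7 fell (median −0.48). Without libraries 2 and 3, 8 rose and 2 fell (median 0.45). Of 14 immediate early and heat shock genes, which also respond to tissue handling, 8 rose and 0 fell (4 rose after removal of the GC trend, where the median went from 1.04 to 0.42). Egr1 went from 63.6, 47.5 and 55.5 CPM to 232, 252, 240 and 172 CPM (log2 fold change 2.01, adjusted p = 2.3e-05). Cyp1a1, the main target of the aryl hydrocarbon receptor, went from 0.0607, 0.599 and 0.564 CPM to 19.7, 29.8, 11.6 and 14.9 CPM (log2 fold change 5.51, SE 0.56, adjusted p = 6.7e-06), while the receptor gene Ahr fell by 1.51 (adjusted p = 4.8e-05).

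Compared directly with Wnt-C59 alone, the combination differed in 43 of the 18651 genes (0.231%), 19 higher (0.102%) and 24 lower (0.129%). At an unadjusted p under 0.05 there were 3892, and with DESeq2 1507 genes passed. Leaving out single libraries gave between 1 and 45 genes: 17, 1, 45 and 29 without combination libraries 2, 3, 4 and 5, and 3, 3, 12 and 5 without the Wnt-C59 libraries numbered 1, 2, 4 and 5. Among the list members that passed were Mylk, the kinase of the myosin light chain, chosen after its values were seen (log2 difference −1.17, adjusted p = 0.021), and Cdh19, a cadherin of Schwann cells (−1.71, adjusted p = 0.03). Both were lower in the combination. Krt71 did not pass (adjusted p = 0.077), nor did Lef1 (adjusted p = 0.14), Cxcl9 (0.56), Rock2 (0.97) or Far2 (0.1).

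Against syngeneic vehicle skin the combination differed in 10081 genes (54.1%), 26.9% higher and 27.2% lower. After removal of the GC trend 8503 were called. The gene values that follow are without that removal. Fractional values made up 32.02% to 33.86% of the non-zero entries of a syngeneic library. In the combination the share was 44.76% to 55.92%, and with Wnt-C59 alone 52.42% to 60.62%. Treatment and disease cannot be told apart here from a batch that runs along these groups. Far2 and Krt15 did not pass the test (log2 fold changes 0.32 and 0.72, adjusted p = 0.22 and 0.064). Cxcl9 was higher than in syngeneic skin by 2.99 (adjusted p = 0.003), Cd8a by 4.20 (adjusted p = 3.9e-05) and Lyz2 by 1.76 (adjusted p = 3.4e-05). Krt16 was higher by 5.96 (adjusted p = 0.00054). Col1a1 and Col3a1 did not pass (−0.47 and −0.41, adjusted p = 0.32 and 0.23), while Axin2 was lower by 1.29 (adjusted p = 0.0072) and Lef1 by 1.99 (adjusted p = 0.023). Rock1 and Rock2 were lower by 2.38 and 1.63 (adjusted p = 4.9e-06 and 6e-06).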

How the data were processed

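Skin total RNA was sequenced in 15 libraries of 4 groups. The authors deposited 1 table of estimated counts per gene, in which many values are not whole numbers. Per the submitters' processing notes, FastQC, Trim Galore, HISAT2 and featureCounts were used with the build GRCm39, while versions, strand setting and the handling of reads with several matches are not given in the sources used here. The design had assumed whole counts, so each value was first rounded. All 15 libraries entered 1 fit with edgeR 4.0.16 (R 4.3.3), using TMM factors, its filter on low counts and the robust quasi-likelihood test, and p-values were adjusted over the 18651 genes tested by the Benjamini-Hochberg method. SE is the standard error of the log2 fold change. The code was tested on simulated data.

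Gene lists (45, with 652 distinct genes) and the members described were chosen with earlier results of these data known. Named genes are the 15 largest rises and 15 largest falls without overlap between groups and at least 5 CPM in the higher group, up to 6 called members of each list by adjusted p, and a fixed set of drug targets and markers. Immunoglobulin and T cell receptor segments, unnamed gene models, pseudogenes and sex-linked genes were left out of the first set. GC content was at hand for 97.7% of tested genes. Promoters came from RefSeq (GRCm38.p6), and no GRCm39 coordinates were used. A list and some genes are not reported here. Counts of reads in near-identical or overlapping genes are uncertain. Alternatives were DESeq2 1.42.0, limma 3.58.1 (voom), other size factors, no filter, fits on the compared groups only, removal of the GC trend, adipocyte or muscle scores as covariates, and libraries left out.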

Additional observations from a re-analysis of the deposited data

Results flagged for a closer look

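In a group of 4 libraries, a value was singled out when its gap to the nearest other value, over the range of the group (both on the log2 scale), exceeded 0.829. Of 176 groups of values tested 6 met this, and chance gives about 1 in 20. Combination library 3 stood apart at 294 CPM in Far2 and at 13 CPM in Cyp2j12. Combination library 4 stood apart at 305 CPM in Eln and at 6.32 in the mean log2 level of the myofibroblast list. Combination library 5 had the highest Pparg level, 32.7 CPM, and combination library 2 stood apart at 4.94 in the mean log2 level of the Schwann cell list.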

How the results depend on the processing

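No paired analysis was possible because the column numbers of the combination libraries are not the replicate numbers of the titles. For combination against vehicle, 10168 genes were called, and 8905 to 9761 with 1 library left out, but 4671 with the adipocyte score as a covariate. Against Wnt-C59 alone the count of 43 became 1507 with DESeq2, 18 with only the libraries compared and 1 to 45 with 1 library left out. Of 132 named genes, 77 kept direction and call under all alternatives run. Directions turned for Corin (−0.12), Lef1 (−0.95) and Stat3 (0.17) without libraries 4 and 5, for Sox10 (−0.06) after removal of the GC trend, and for Stat3 (0.00) without vehicle library 3, where leaving out single libraries gave Stat3 values between −0.39 and 0.00. The fitted Krt25 value without libraries 4 and 5 (−5.07) sets 0 counts against 10 and gives no size. The cause was not tested.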
